A study of Mus musculus with 28 samples.

Results

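Hippocampal RNA from aged NSG mice given old human plasma was compared with hippocampal RNA from aged NSG mice given phosphate-buffered saline (PBS). The comparison rests on the 7 arrays titled as old plasma and the 7 titled as PBS, 14 of the 28 arrays of the series. All genes with a symbol were taken, each through its brightest array row. This gave 22256 genes, of which 15781 passed a filter on dim signal and were tested, while 6475 fell below it.

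All animals were NSG mice with a mean age of 14 months, and all received 6 intravenous injections before the hippocampus was dissected. The injected fluid was human plasma from old donors, from young donors or from umbilical cord, or PBS as the vehicle. NSG mice lack mature T cells, B cells and natural killer cells but keep neutrophils, monocytes and microglia, so they tolerate repeated human plasma. Whether the arrays stand for 14 different mice, and how plasma was pooled, is not stated in the labels, so the tests below measure the spread between these arrays.

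The hippocampus holds granule neurons of the dentate gyrus and pyramidal neurons of the CA fields, which take part in forming memories. Blood-borne proteins act on it through the vascular endothelium, the choroid plexus and glia, and plasma of different ages has been studied for effects on synaptic plasticity, new neurons and inflammation in aged animals. Gene groups from these processes, and markers of neighbouring tissues that a dissection can include, are described here by their roles.

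The arrays resembled each other closely, with pairwise correlations between 0.985 and 0.995 among the 14. The deposited values are log2 intensities, and every difference below is the old plasma mean minus the PBS mean on that scale. Hippocampal identity was visible on every array. Prox1, the transcription factor that marks dentate granule neurons, ran from 8.27 to 8.98 with old plasma and from 8.44 to 9.12 with PBS. Neurod6, a transcription factor of pyramidal neurons, ran from 9.21 to 9.60 with old plasma and from 9.23 to 9.66 with PBS. PBS replicate 4 stood apart in interferon-stimulated genes, with a mean of 7.13 over the 22 tested, against 5.64 to 5.79 on the other PBS arrays.

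No gene passed the threshold of an adjusted p under 0.05 in limma's moderated test, which is 0% of the 15781 tested. The smallest adjusted p was 0.0515, reached by Adap1, which was higher with old plasma, and by 1810008I18Rik, which was lower. An unadjusted p under 0.05 was reached by 1700 genes, or 10.8%, with 1045 higher (6.62%) and 655 lower (4.15%) with old plasma. In the authors' deposited table, which holds every row with a symbol, 2515 of 23410 rows had an unadjusted p under 0.05. These are counts of rows and not of genes, and none passed after Benjamini-Hochberg adjustment (smallest 0.152). Differences were small, and 52.5% of all genes were above 0. The median absolute difference was 0.06, 237 genes differed by over 0.25 and 10 by over 0.5.

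The split of genes at an unadjusted p under 0.05 moved with the scaling of the arrays, each share being over the genes called under that scaling. As deposited, 61.5% were higher. Centring each array on the median of its tested genes gave 31.0% higher, with 531 higher and 1181 lower. Centring on the median of all rows gave 89.0% higher, with 2097 higher and 259 lower, and 104 genes then had an adjusted p under 0.05. Restricting the test to genes above the 50th percentile of brightness gave 77.1% higher. The array medians over all rows averaged 4.99 with old plasma and 5.03 with PBS.

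The share of genes called higher rose with brightness, while the median difference did not rise steadily. Genes were divided into 4 equal bins by level. In the dimmest bin the median difference was -0.03, and 8.79% of genes were lower against 2.08% higher at an unadjusted p under 0.05. In bin 2, counted from the dimmest, the median was 0.01, with 5.91% higher against 2.97% lower. In bin 3 the median was 0.02, with 8.87% higher against 1.27% lower. In the brightest bin the median difference was 0.01, and 9.63% were higher against 3.57% lower. Without PBS replicate 7 the median of the brightest bin was -0.0006. After a loess correction of each array against mean brightness, 835 genes were higher and 746 lower, or 52.8% higher. The correction left 7.50% higher and 6.46% lower in the brightest bin.

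**Figure D1:**
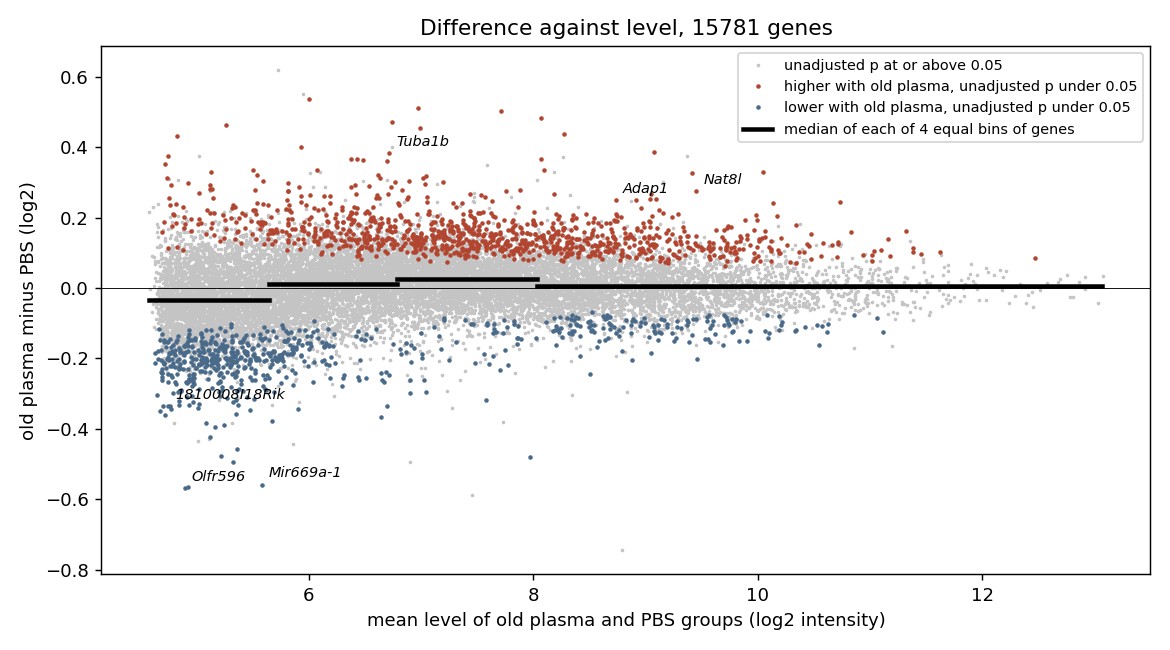
Difference between old plasma and PBS (log2) against mean level (log2 intensity) for each of the 15781 genes, with genes at an unadjusted p under 0.05 in colour and black bars for the median of each of 4 equal bins of genes by level. Low-level genes lie more often below 0 and brighter genes more often above it, while the bin medians run from -0.03 to 0.02.

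Among genes higher with old plasma, Adap1 had the smallest p. It encodes a neuronal GTPase-activating protein for Arf6, a small GTPase of membrane traffic at dendrites and synapses. Its level ran from 8.76 through a median of 8.83 to 9.04 with old plasma, and from 8.54 through 8.62 to 8.70 with PBS. Every old plasma array lay above every PBS array. The difference was 0.25 (SE 0.04), a fold of 1.19, with an adjusted p of 0.0515 that ranged from 0.0141 to 0.388 over the alternatives tried.

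Nat8l encodes the neuronal enzyme that makes N-acetylaspartate. It ran from 9.49 through 9.57 to 9.81 with old plasma, and from 9.19 through 9.29 to 9.51 with PBS, so that 6 of the 7 old plasma arrays exceeded all PBS arrays. The difference was 0.28 (SE 0.06) with an adjusted p of 0.12. Old plasma replicate 3 was the highest. Of 22 tested genes of N-acetylaspartate and glutamate metabolism, Nat8l was the 1 higher at an unadjusted p under 0.05, and the list's median of 0.01 lay close to that of all genes.

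Begain, a protein bound to the guanylate kinase domain of PSD-95 at the postsynaptic density, ran from 8.20 through 8.32 to 8.44 with old plasma, and from 7.90 through 8.03 to 8.28 with PBS. Its difference was 0.27 (SE 0.06) with an adjusted p of 0.12, and 5 old plasma arrays exceeded all PBS arrays. Map2k7, the kinase that activates JNK, ran from 8.18 through 8.25 to 8.33 with old plasma, and from 8.05 through 8.11 to 8.16 with PBS. The groups of Map2k7 did not overlap, and the difference was 0.15 (SE 0.03).

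Tuba1b, an alpha-tubulin of microtubules, had one of the wider gaps between group means. It ran from 6.83 through 6.90 to 7.02 with old plasma, and from 6.06 through 6.56 to 6.91 with PBS. The old plasma arrays lay close together, whereas the PBS arrays were spread out and the highest of them overlapped the old plasma range. The difference was 0.38 (SE 0.09), a fold of 1.30, with an adjusted p of 0.12.

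Klc2, a light chain of the kinesin motor that carries axonal cargo, ran from 9.12 through 9.19 to 9.24 with old plasma, and from 8.92 through 9.04 to 9.10 with PBS. The groups did not overlap, and the difference was 0.17 (SE 0.04). Zmiz2, a coactivator of nuclear receptors, ran from 9.82 through 9.97 to 10.12 with old plasma, and from 9.68 through 9.79 to 9.86 with PBS, with 6 old plasma arrays above all PBS arrays and a difference of 0.19 (SE 0.04). Med25, a subunit of the Mediator complex that links activators to RNA polymerase II, ran from 8.25 through 8.33 to 8.44 with old plasma, and from 8.06 through 8.12 to 8.21 with PBS, without overlap, and the difference was 0.20 (SE 0.05). These 3 genes had adjusted p-values between 0.12 and 0.137.

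Samd10, a sterile alpha motif protein, ran from 5.86 through 5.98 to 6.08 with old plasma, and from 5.47 through 5.68 to 5.80 with PBS. The groups did not overlap, with a difference of 0.30 (SE 0.07), and PBS replicate 2 was the lowest array. The other genes among the 15 with the smallest p in this direction were Fam219a, Zbtb8a, Fam131b, Fam189b, Pradc1 and Phf1, a Polycomb-associated protein. Their differences lay between 0.19 and 0.29, and each had an adjusted p of 0.12 or 0.13.

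**Figure D2:**
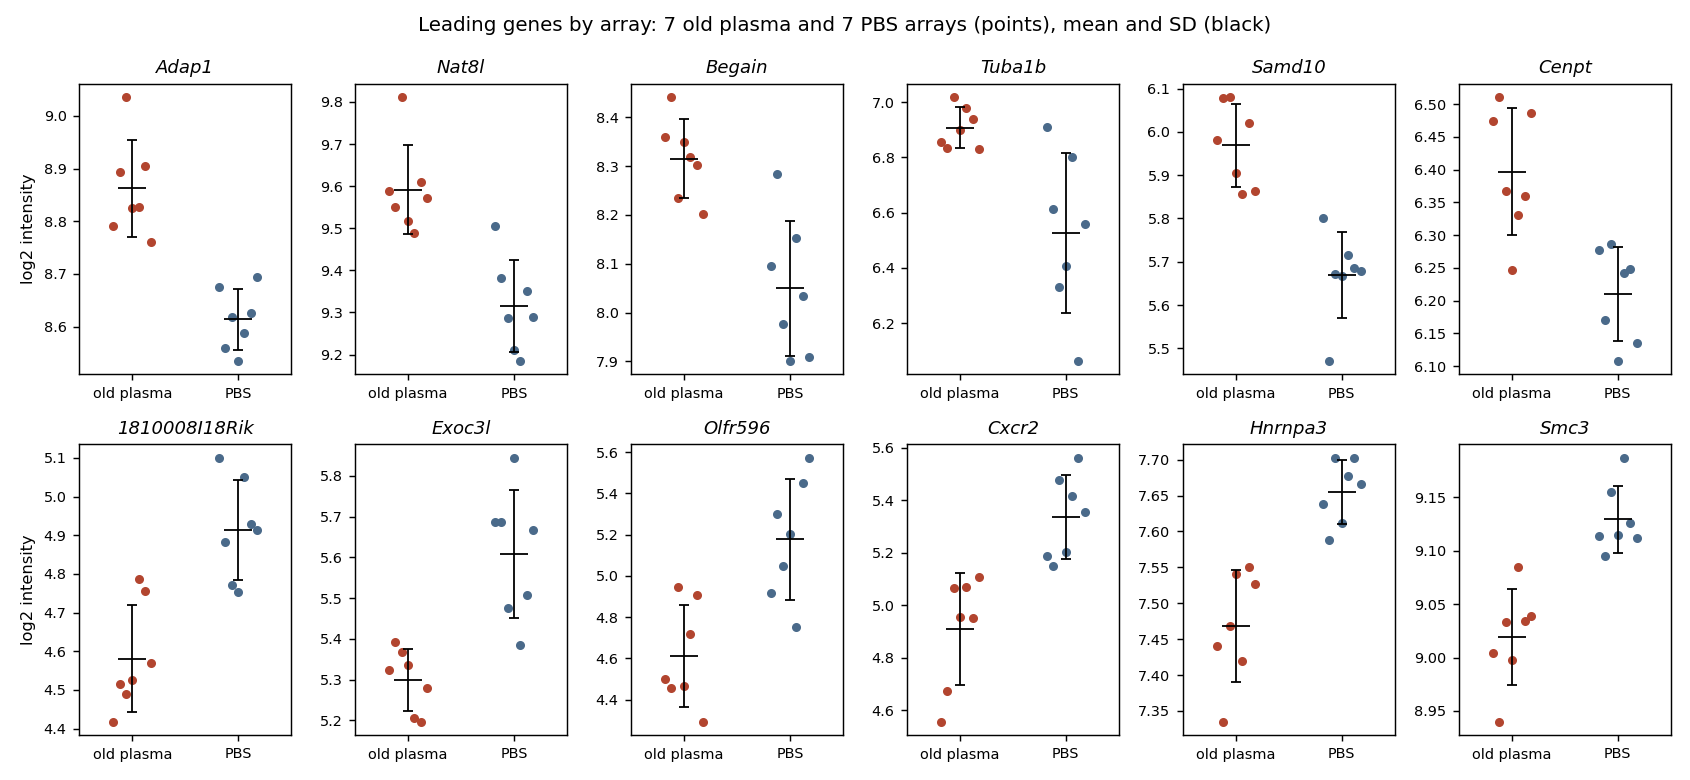
Log2 intensity of 12 genes on each of the 7 old plasma arrays (left) and 7 PBS arrays (right), with the mean and SD in black and a separate axis range in each panel. Upper panels show genes higher with old plasma, such as Adap1 without overlap, and lower panels show genes lower with old plasma, such as Cxcr2 and Hnrnpa3 without overlap. Cenpt, in an upper panel, was picked after its values were seen.

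Genes whose groups did not overlap were few. There were 36 with every old plasma array above every PBS array, or 0.228% of genes tested, and 15 with every old plasma array below, or 0.0951%, together 0.323%. This split turned with the scaling, to 8 higher and 50 lower after centring on the median of tested genes, and to 23 higher and 30 lower after loess. The widest gaps in the higher direction included those of Adap1, Samd10, Med25, Fam131b and Fam160b2. Also among them were Ldlrad4, an inhibitor of TGF-beta signalling, Fcho1, which starts clathrin-coated pits, Rnf208, Zfp575 and Tbc1d9b. The differences of Ldlrad4, Fcho1, Rnf208, Zfp575 and Tbc1d9b lay between 0.18 and 0.21. In the lower direction were Hnrnpa3, an RNA-binding protein, Smc3, a subunit of the cohesin ring, Timm17a, of the mitochondrial inner membrane import channel, and Usp34, a deubiquitinase.

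Hnrnpa3 ran from 7.33 through 7.47 to 7.55 with old plasma, and from 7.59 through 7.67 to 7.70 with PBS, a difference of -0.19 (SE 0.06). Smc3 ran from 8.94 through 9.03 to 9.09 with old plasma, and from 9.10 through 9.12 to 9.19 with PBS, a difference of -0.11 (SE 0.03). Both were bright genes with narrow ranges in each group. Their adjusted p-values were 0.27 for Hnrnpa3 and 0.229 for Smc3.

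Most genes with the smallest p in the lower direction were dim. 1810008I18Rik, a transcript without a described function, ran from 4.42 through 4.53 to 4.79 with old plasma, and from 4.75 through 4.91 to 5.10 with PBS, so that 5 old plasma arrays fell below all PBS arrays. Its difference was -0.33 (SE 0.06) with an adjusted p of 0.0515, and -0.29 after loess. Its adjusted p ranged from 0.018 to 0.388 over the alternatives tried, with 0.219 after loess and 0.0455 without PBS replicate 4. Its old plasma mean of 4.58 lay below the filter on dim signal, 4.68, which is set on the mean of all 28 arrays, so it passed through the groups where it was higher.

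Exoc3l, a protein related to exocyst subunit Sec6, ran from 5.20 through 5.32 to 5.39 with old plasma, and from 5.38 through 5.67 to 5.84 with PBS. Only the highest old plasma array reached the PBS range, and the difference was -0.31 (SE 0.06) with an adjusted p of 0.12. Cxcr2, the receptor for neutrophil-attracting chemokines, ran from 4.56 through 4.95 to 5.11 with old plasma, and from 5.15 through 5.36 to 5.56 with PBS. The groups did not overlap, both rows of Cxcr2 were lower, and the difference was -0.42 (SE 0.10) with an adjusted p of 0.137.

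Olfr596, an olfactory receptor gene, ran from 4.29 through 4.50 to 4.95 with old plasma, and from 4.75 through 5.20 to 5.57 with PBS, a difference of -0.57 (SE 0.12). The old plasma range of Olfr596 spans the filter on dim signal, 4.68. That filter is a percentile of row brightness and not a measure of background. Similarly dim were Prr19, 5730403I07Rik, Fbxo43, a meiotic inhibitor of the anaphase-promoting complex, Fscn3, a testis fascin, Adad2 and Bpifb5, whose old plasma medians were between 4.63 and 4.83. The lowest of these medians also lay below the filter. Kcnq1, a voltage-gated potassium channel best known from heart and inner ear, had a median of 4.83 with old plasma and 5.17 with PBS.

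Mir669a-1, a precursor in the microRNA cluster within an intron of Sfmbt2, ran from 5.15 through 5.28 to 5.56 with old plasma, and from 5.42 through 5.97 to 6.11 with PBS. Its difference was -0.56 (SE 0.12), a fold of 0.679, with an adjusted p of 0.12. The table lists Mir669a-1 in 13 rows, which carry identical values and are 1 measurement. Of 12 precursor symbols of the miR-669 family, 10 had a difference below 0, with 3 lower and 1 higher at an unadjusted p under 0.05. Over all genes tested, 4.15% were lower, 6.62% higher and 52.5% above 0, and of these 4 precursors Mir669g, lower, and Mir669e, higher, lay below the filter. Only 4 of the 12 passed the filter on dim signal, and close copies of this family can share probe signal.

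The synaptic lists began with presynaptic vesicle release, the machinery that docks and fuses transmitter vesicles. Of 30 genes tested, 9 were higher and 0 lower at an unadjusted p under 0.05, where 6.62% of all genes were higher. The median difference was 0.05, against 0.005 over all genes, and 26 of the 30 were above 0. The list's mean level was 9.91, 9.99 and 10.09 (lowest, median, highest) with old plasma, and 9.87, 9.92 and 10.02 with PBS, so the groups overlapped. After loess, 7 were higher. Centring on the median of tested genes left 2 higher and 19 above 0, and centring on all rows gave 13 higher. Without PBS replicate 4, 4 were higher, and without old plasma replicate 3, 5.

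Syn3, a synapsin that tethers vesicles, ran from 7.79 through 7.99 to 8.28 with old plasma, and from 7.57 through 7.75 to 7.93 with PBS, a difference of 0.28 (SE 0.08) with an adjusted p of 0.213. All 7 old plasma arrays lay above the PBS median of Syn3, and 5 exceeded all PBS arrays. Snap25, which pairs with syntaxin, differed by 0.08 (SE 0.03), Bsn, the active zone scaffold bassoon, by 0.15 (SE 0.06), and Rph3a, a Rab3 effector, by 0.14 (SE 0.06).

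Voltage-gated channels set the firing of these neurons. Of 30 potassium channel subunits, 7 were higher and 0 lower, or 23.3%, against 6.62% of all genes, with a median of 0.07. Kcnh3, a channel of the ether-a-go-go family found in forebrain, ran from 9.10 through 9.16 to 9.35 with old plasma, and from 8.81 through 8.95 to 9.11 with PBS, a difference of 0.25 (SE 0.07) with an adjusted p of 0.205. Kcnj4, an inward rectifier, and Kcnc1, a fast delayed rectifier, each differed by 0.15. Centring on the median of tested genes left 3 of the 30 higher, loess 4, and centring on all rows gave 12. Leaving out 1 array gave 4 to 7, with 4 without PBS replicate 2 or 4 or without old plasma replicate 1 or 3.

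Of 23 sodium and calcium channel subunits, 6 were higher and 0 lower, or 26.1%, against 6.62% of all genes. After centring on tested genes 3 were higher and 1 lower, and without PBS replicate 3 or old plasma replicate 3, 4 were higher. The list's median was 0.01 as deposited, -0.02 after centring on tested genes and 0.05 after centring on all rows, so no direction of the list as a whole is given. Cacnb1, an auxiliary calcium channel subunit, ran from 8.32 through 8.40 to 8.45 with old plasma, and from 8.13 through 8.31 to 8.34 with PBS, a difference of 0.13 (SE 0.04). Cacna1a, the pore of P/Q-type channels at nerve terminals, differed by 0.13 (SE 0.05). Scn4b, a sodium channel beta subunit, differed by 0.37 (SE 0.14), and by 0.25 without old plasma replicate 3, whose level of 7.28 was the highest.

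On the receiving side, 35 genes for glutamate receptors, postsynaptic scaffolds and CaMKII were tested. Of these, 4 were higher and 0 lower, or 11.4% higher against 6.62% of all genes. This count was 0 higher and 3 lower after centring on tested genes, 2 higher and 2 lower after loess, 8 higher after centring on all rows, 2 higher without PBS replicate 4 and 1 higher without old plasma replicate 2. Dlgap3, a scaffold bound to PSD-95, and Camk2g, a subunit of the calmodulin-dependent kinase, each differed by 0.13. The median of 0.02 became 0.00 after centring on tested genes. Among 13 GABA-A receptor genes, which mediate fast inhibition, 2 were lower and 0 higher, or 15.4% lower against 4.15% of all genes. None was lower after centring on all rows, or without PBS replicate 3 or old plasma replicate 1, 2 or 4. Gabra4 differed by -0.09 (SE 0.04) and Gabrb1 by -0.15 (SE 0.07), with adjusted p-values of 0.404 for Gabra4 and 0.434 for Gabrb1.

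Adap1 belongs to the regulators of Arf GTPases, of which 7 of 36 tested were higher and 0 lower, or 19.4%, against 6.62% of all genes, with a median of 0.06. After centring on tested genes 3 were higher, after centring on all rows 17, and without PBS replicate 6, 3. Psd, an exchange factor for Arf6, ran from 8.70 through 8.80 to 8.85 with old plasma, and from 8.58 through 8.63 to 8.79 with PBS, a difference of 0.14 (SE 0.04). Cyth2, an exchange factor of the cytohesin family, and Git1 and Git2, Arf GTPase-activating scaffolds, differed by 0.13, 0.12 and 0.11. This list was chosen with the value of Adap1 known, so its count is partly a restatement of that gene.

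Exocyst genes tether secretory vesicles at the plasma membrane. Of 12 tested, 2 were lower and 0 higher, and 11 were below 0, with a median of -0.05, where 4.15% of all genes were lower. After centring on all rows the median was -0.01 and 5 of the 12 were above 0. The list was likewise chosen with Exoc3l known. The second gene was Exoc3l4, a relative of Exoc3l, which ran from 5.20 through 5.39 to 5.65 with old plasma, and from 5.47 through 5.64 to 5.75 with PBS, a difference of -0.19 (SE 0.06). Both are paralogs named for their similarity and not core subunits of the complex.

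Of 12 tubulin genes, 3 were higher and 1 lower, or 25.0% and 8.33%, against 6.62% and 4.15% of all genes. The list was chosen with the value of Tuba1b known, so its count is partly a restatement of that gene. Beside Tuba1b, Tubg2, a gamma-tubulin of microtubule nucleation, differed by 0.17 (SE 0.05), and Tubb4a, a beta-tubulin abundant in neurons and myelinating glia, by 0.16 (SE 0.06). Tubb6 differed by -0.22 (SE 0.09). The median of the list was 0.05, and 0.02 without PBS replicate 4.

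**Figure D3:**
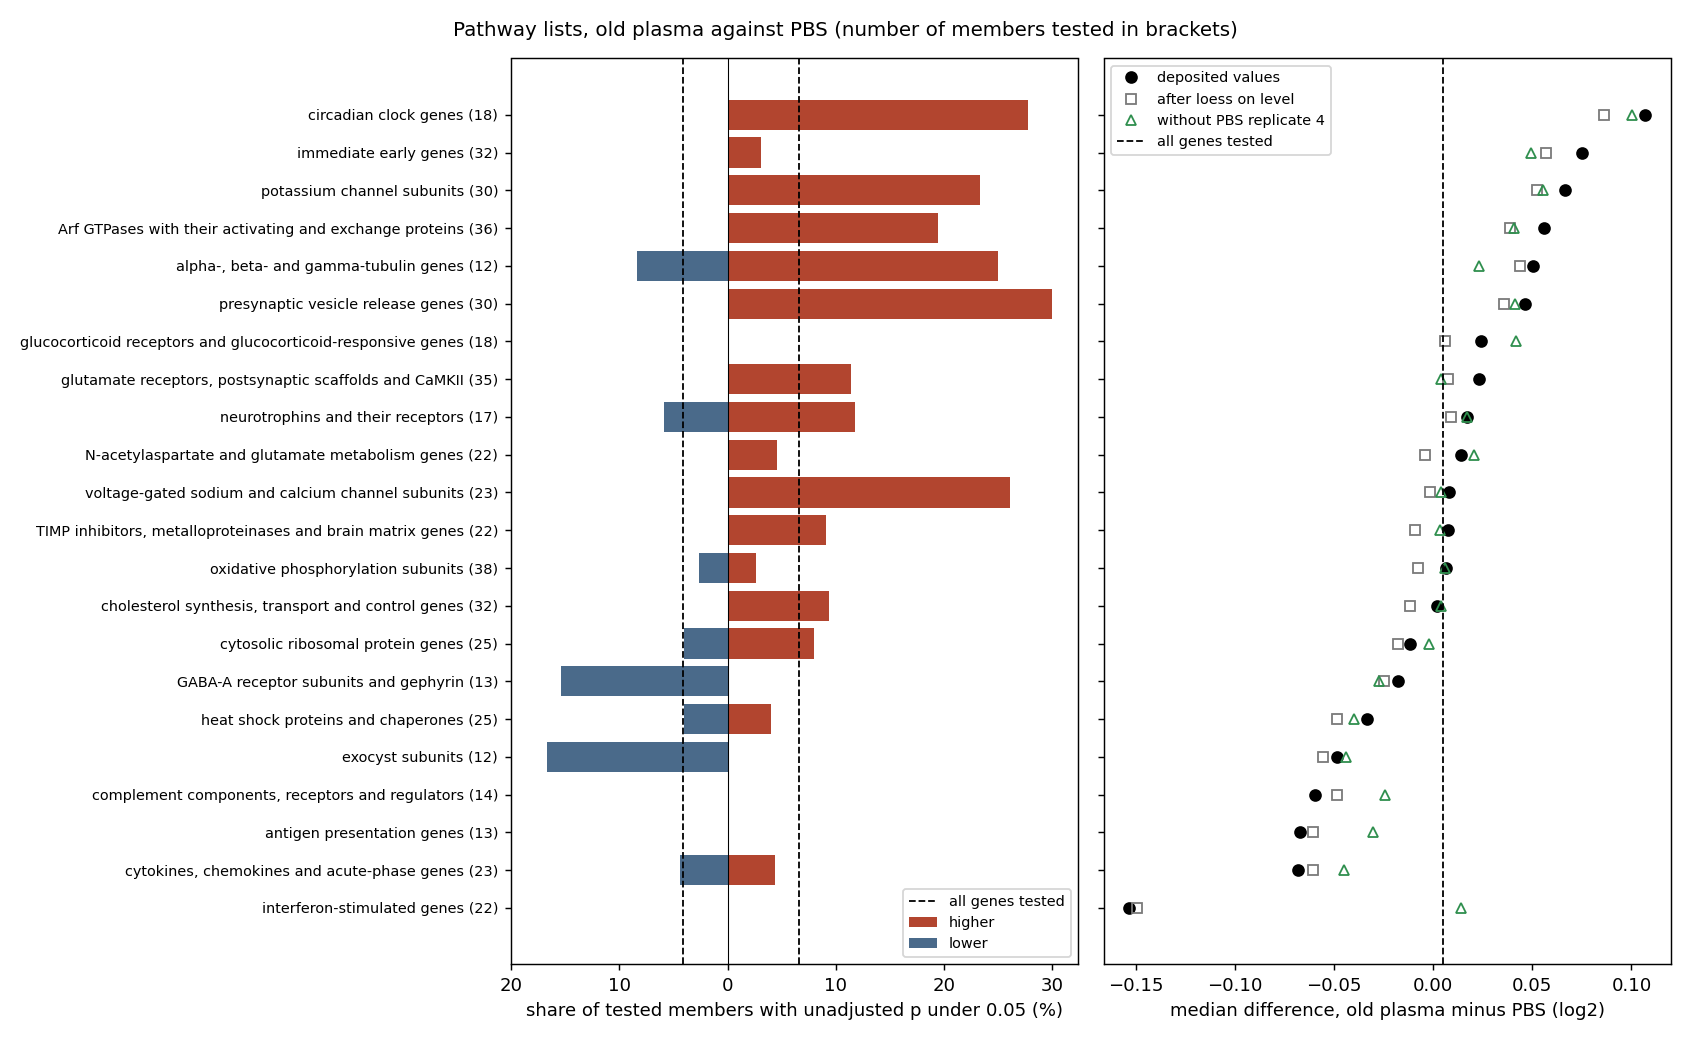
Left, share of tested members of each pathway list that were higher (red, to the right) or lower (blue, to the left) with old plasma at an unadjusted p under 0.05, with dashed lines at the 6.62% and 4.15% of all genes. Right, median difference of each list (log2) as deposited, after loess and without PBS replicate 4; the interferon list goes from -0.15 to 0.01 without that array.

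Clock genes form a feedback loop in which Arntl and Clock activate the Per, Cry, Nr1d and Bhlhe repressors through E-boxes in their promoters. Of 18 clock genes tested, 5 were higher and 0 lower at an unadjusted p under 0.05, or 27.8%, against 6.62% of all genes, and 16 were above 0, with a median of 0.11. After loess the median was 0.09 with 3 higher, after centring on tested genes 0.08 with 0 higher, and after centring on all rows 0.14 with 8 higher. Without old plasma replicate 3, 1 was higher, and without PBS replicate 4, 3. The list's mean level was 8.22, 8.30 and 8.45 (lowest, median, highest) with old plasma, and 8.16, 8.20 and 8.30 with PBS. Old plasma replicates 1, 2, 3 and 4 exceeded every PBS array, and the other 3 lay within the PBS range.

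Arntl, the activator BMAL1, ran from 8.19 through 8.23 to 8.31 with old plasma, and from 8.05 through 8.09 to 8.23 with PBS, a difference of 0.12 (SE 0.04) with an adjusted p of 0.28. Nr1d1, the repressor REV-ERB alpha, ran from 9.26 through 9.43 to 9.55 with old plasma, and from 9.08 through 9.32 to 9.35 with PBS, a difference of 0.17 (SE 0.07). Arntl of the activating limb and Nr1d1 of the repressing limb thus both had differences above 0. Below 0 in this list were the activator Clock, at -0.01 (SE 0.04), and Rora, at -0.02 (SE 0.09). Cry2, a repressor, differed by 0.12 (SE 0.05), and the repressors Bhlhe40 and Bhlhe41 by 0.11 and 0.13.

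The promoters of Bhlhe41 and Per1 are shown because both hold the clock's own motif and because Per1 also holds a D-box, the site of the clock-controlled PAR bZIP factors. Each sequence runs from 250 bases before to 50 bases after the RefSeq gene start in GRCm38.p6, and capitals mark the E-box (CACGTG) and the D-box (TTATGNAA). The Bhlhe41 window is chr6:145865371-145865670 on the minus strand, with the E-box 153 bases before the gene start. The Per1 window is chr11:69098699-69098998 on the plus strand, with the E-box 166 and the D-box 24 bases before the gene start.
Bhlhe41: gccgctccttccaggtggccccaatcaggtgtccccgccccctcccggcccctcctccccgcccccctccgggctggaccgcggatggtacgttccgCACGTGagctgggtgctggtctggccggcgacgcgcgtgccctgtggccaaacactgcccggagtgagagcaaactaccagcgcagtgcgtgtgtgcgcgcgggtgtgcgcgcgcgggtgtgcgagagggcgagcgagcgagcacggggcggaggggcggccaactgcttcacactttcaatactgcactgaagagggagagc
Per1: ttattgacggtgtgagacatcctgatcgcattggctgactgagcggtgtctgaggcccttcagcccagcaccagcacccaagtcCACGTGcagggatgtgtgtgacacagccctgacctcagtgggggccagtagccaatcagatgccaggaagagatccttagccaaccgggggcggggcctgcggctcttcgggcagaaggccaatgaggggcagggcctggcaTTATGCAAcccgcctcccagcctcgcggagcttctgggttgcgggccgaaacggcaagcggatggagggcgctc
Both strands of each window were searched. Of 32851 RefSeq promoters of this length, 7.15% hold the E-box and 3.39% the D-box. Among the 17 tested clock genes with a promoter in the table, 5 hold an E-box, namely Bhlhe41, Ciart, Cry1, Per1 and Tef, and 2 hold a D-box. Counted by promoter, as in those shares, 6 of the 23 promoters of these genes hold an E-box and 2 a D-box. A match to these letters is a description of the sequence and not evidence of binding.

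Bhlhe41 ran from 8.39 through 8.60 to 8.68 with old plasma, and from 8.34 through 8.39 to 8.60 with PBS, and all 7 old plasma arrays lay above the PBS median. Per1 ran from 9.11 through 9.19 to 9.39 with old plasma, and from 8.95 through 9.05 to 9.15 with PBS, with 5 old plasma arrays above all PBS arrays. The Per1 difference of 0.18 (SE 0.11) had an adjusted p of 0.596.

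Immediate early genes respond within minutes to neuronal firing. Of 32 tested, 1 was higher and 0 lower, or 3.13%, below the 6.62% of all genes, although 26 were above 0 and the median was 0.07. The gene that was higher was Jund, an AP-1 subunit with steady expression, with a difference of 0.12 (SE 0.06). Old plasma replicates 2 and 3 were the highest arrays, at list means of 7.61 and 7.77, against 7.22 to 7.46 on the PBS arrays. Without old plasma replicate 3 the median was 0.04.

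Fos, the classic activity marker, ran from 5.42 through 5.88 to 7.15 with old plasma, and from 5.65 through 5.74 to 6.10 with PBS. Its difference of 0.33 (SE 0.21) became 0.16 without old plasma replicate 3. Egr1 ran from 7.95 through 8.13 to 9.14 with old plasma, and from 7.61 through 8.12 to 8.29 with PBS, so the medians nearly coincided. Npas4, an activity-dependent factor of inhibitory synapse formation, ran from 5.44 through 5.95 to 7.26 with old plasma, and from 4.91 through 5.80 to 6.18 with PBS, a difference of 0.55 (SE 0.29) with an adjusted p of 0.52. In all 3 genes the highest old plasma array exceeded the PBS range and the old plasma median lay within it.

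Glucocorticoid receptors and their target genes serve as a readout of handling stress. None of 18 tested passed an unadjusted p under 0.05 in either direction, and the median of 0.02 became 0.00 after centring on tested genes. Old plasma replicate 1 was high in this list, at a mean of 8.38, against 8.06 to 8.14 on the other old plasma arrays.

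Interferon-stimulated genes were described with and without PBS replicate 4. Of 22 tested, 0 were above 0 and 0 passed an unadjusted p under 0.05, with a median of -0.15. Without that array the median was 0.01 and 12 of the 22 were above 0. Irf7, a transcription factor induced by interferon, ran from 5.46 through 5.64 to 5.77 with old plasma, and from 5.41 through 5.71 to 8.67 with PBS, the highest being PBS replicate 4. Its difference was -0.44 as deposited and -0.01 without that array. B2m, the light chain of MHC class I, differed by -0.10 as deposited and 0.05 without it.

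Other immune lists had medians below 0 and few called genes, where 6.62% of all genes were higher and 4.15% lower. Complement, which tags synapses for removal by microglia, had 0 called of 14 tested and a median of -0.06, or -0.02 without PBS replicate 4. Antigen presentation had 0 called of 13 and a median of -0.07, or -0.03 without PBS replicate 4. Cytokines, chemokines and acute-phase genes had 1 higher and 1 lower of 23, with a median of -0.07. The higher was Cx3cl1, the neuronal ligand of the microglial fractalkine receptor, which ran from 10.08 through 10.17 to 10.24 with old plasma, and from 9.94 through 10.06 to 10.14 with PBS, a difference of 0.12 (SE 0.04). The lower was Saa3, an acute-phase protein, with a difference of -0.35 (SE 0.11) at levels near the filter. Leaving out 1 array gave 1 to 5 lower in this list, with 5 without PBS replicate 3. The list's median was -0.04 without PBS replicate 4.

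Neutrophil and monocyte genes bear on Cxcr2, since these cells circulate in NSG mice. Cxcr2 is itself the 1 member lower at an unadjusted p under 0.05 among the 7 tested. None of the 7 was above 0, with a median of -0.11, or -0.05 without PBS replicate 4. The list's mean ran from 5.27 through 5.35 to 5.45 with old plasma, and from 5.32 through 5.49 to 5.91 with PBS, and 10 of the 17 genes on the table lay below the filter. Camp, a granule protein of neutrophils, was dim on every array, from 3.28 to 3.66 with old plasma and from 3.26 to 3.83 with PBS. The part of such cells in the Cxcr2 difference was not tested.

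Trophic signalling had 2 genes higher and 1 lower of 17 neurotrophins and receptors, with a median of 0.02. Over all genes, 6.62% were higher and 4.15% lower. Gfra2, the receptor for neurturin, ran from 8.72 through 9.23 to 9.73 with old plasma, and from 8.64 through 8.92 to 9.08 with PBS. In Gfra2, 6 old plasma arrays exceeded all PBS arrays, and the difference was 0.39 (SE 0.12), a fold of 1.31, with an adjusted p of 0.246. Cntfr, the receptor for ciliary neurotrophic factor, differed by 0.15 (SE 0.05).

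Sterol genes had 3 of 32 higher and 0 lower, or 9.38% against 6.62% of all genes, with a median of 0.00. Mvd, an enzyme of the mevalonate pathway, ran from 6.89 through 7.19 to 7.43 with old plasma, and from 6.87 through 7.03 to 7.13 with PBS. In Mvd, 6 old plasma arrays exceeded all PBS arrays, and the lowest lay within the PBS range. Mvd differed by 0.18 (SE 0.07), and Cyp46a1, which turns over cholesterol in neurons, by 0.14 (SE 0.05). Old plasma replicate 1 was the lowest array of the sterol list, at a mean of 7.92.

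TIMP inhibitors, metalloproteinases and brain matrix genes had 0 of 22 lower and 2 higher, where 6.62% of all genes were higher. These were Hapln4, a link protein of perineuronal nets, with a difference of 0.18 (SE 0.06), and Mmp24, a membrane-bound metalloproteinase, with 0.13 (SE 0.05). Timp2, a secreted metalloproteinase inhibitor present in plasma, ran from 9.46 through 9.79 to 10.09 with old plasma, and from 9.24 through 9.94 to 10.12 with PBS. The ranges of Timp2 overlapped almost entirely, and the difference of -0.06 (SE 0.12) had an adjusted p of 0.905.

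Housekeeping lists came next, to be read against 6.62% higher and 4.15% lower over all genes as deposited. Oxidative phosphorylation had 1 higher and 1 lower of 38 as deposited, 0 higher and 6 lower after centring on tested genes, and 7 higher and 0 lower after centring on all rows. The lower gene as deposited was Cox6c at -0.10 (SE 0.04). Cytosolic ribosomal proteins had 2 higher and 1 lower of 25. Heat shock proteins and chaperones had 1 higher and 1 lower of 25, which were Hspe1, the mitochondrial cochaperonin, at 0.20 (SE 0.07), and Cct4, a subunit of the cytosolic chaperonin, at -0.10 (SE 0.04), and 4 were lower after centring on tested genes. Only 4 clustered histone genes were tested, and 0 were called.

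Markers of neighbouring tissue were measured in both groups. Of 19 neocortex markers, 5 were higher and 0 lower, or 26.3%, against 6.62% of all genes, with a median of 0.13, and 0.12 after loess. Centring on tested genes left 3 higher and centring on all rows gave 9. Without PBS replicate 4 or old plasma replicate 4, 3 were higher, and without old plasma replicate 5, 10. The list's mean ran from 7.61 through 7.91 to 8.07 with old plasma, and from 7.57 through 7.69 to 7.82 with PBS. Old plasma replicates 1, 2, 3 and 4 lay above every PBS array, and these were the same 4 arrays that exceeded every PBS array in the clock list. Rorb belongs to both lists. In bulk tissue, more cells of a type and more RNA per cell cannot be told apart, and the part of included cortex in the synaptic, channel and clock differences was not tested.

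Among the cortical markers, Scnn1a, a layer 4 gene, ran from 6.66 through 6.80 to 7.19 with old plasma, and from 6.40 through 6.48 to 6.76 with PBS, a difference of 0.36 (SE 0.09) with an adjusted p of 0.147. Lamp5, found in upper layers and a class of interneurons, differed by 0.48 (SE 0.18), Rspo1, a secreted Wnt agonist, by 0.47 (SE 0.15), and Tbr1, a transcription factor of layer 6 and of some hippocampal neurons, by 0.26 (SE 0.13). Old plasma and PBS ranges overlapped in each of them. Below 0 in this list were Sulf1 at -0.12 (SE 0.39), Bcl11b at -0.09 (SE 0.07), Lmo3 at -0.08 (SE 0.09) and Cdh8 at -0.02 (SE 0.05). All other neocortex markers tested were above 0.

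Over all genes, 6.62% were higher and 4.15% lower. Dentate granule markers had 11 of 12 below 0 and 1 lower, with a median of -0.09, or -0.02 without PBS replicate 1. The gene was Calb1, a calcium buffer of granule neurons, which ran from 9.26 through 9.49 to 9.63 with old plasma, and from 9.54 through 9.64 to 9.67 with PBS, a difference of -0.14 (SE 0.05). Pyramidal markers had 1 higher of 15 and a median of -0.03, and interneuron markers 1 higher of 16, Pvalb, with a median of 0.02. Striatum and thalamus markers had 1 lower of 17 and a median of -0.06. That median was 0.01 without PBS replicate 6, whose mean of 7.54 exceeded the other PBS arrays at 6.68 to 6.99. The gene was Prkcd, a kinase abundant in thalamus, with a difference of -0.48 (SE 0.20), and -0.33 without old plasma replicate 2.

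Choroid plexus was unevenly present in both groups. Ttr, which choroid plexus secretes in quantity, ran from 7.42 through 10.36 to 12.80 with old plasma, and from 8.15 through 12.49 to 12.79 with PBS. The list's median of -0.16 became -0.03 without PBS replicate 4, 0.04 without PBS replicate 5 and 0.01 without old plasma replicate 2, and 0 of 14 genes were called. Meningeal fibroblast markers had 2 lower of 14, where 4.15% of all genes were lower, and a median of -0.14. They were Slc47a1, an organic cation exporter, with -0.25 (SE 0.09), and Lum, a matrix proteoglycan, with -0.31 (SE 0.14). The mean of the meningeal list was highest on PBS replicates 6 and 7, at 6.92 and 6.95, against 6.29 to 6.75 with old plasma.

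**Figure D4:**
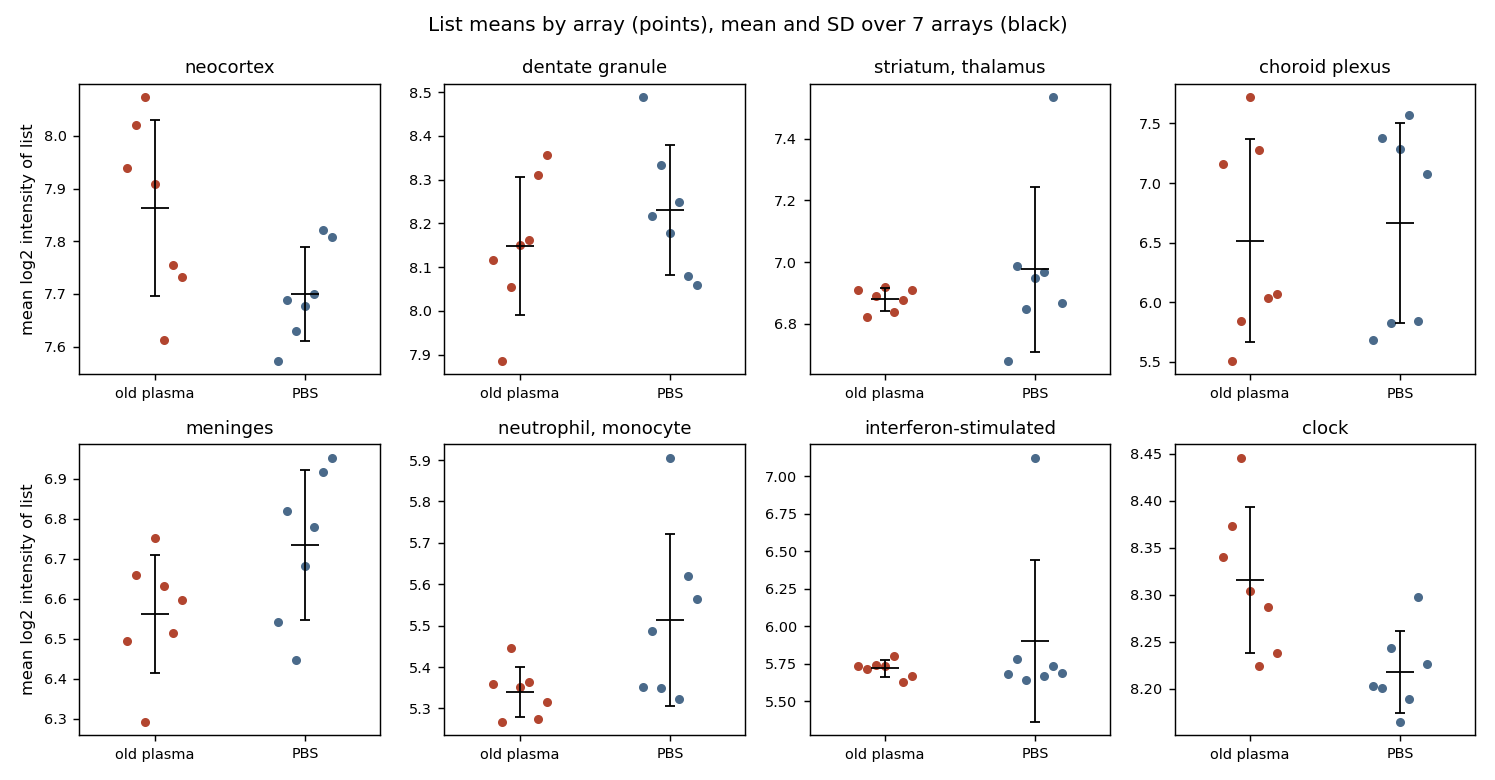
Mean log2 intensity of 8 gene lists on each of the 7 old plasma arrays (left) and 7 PBS arrays (right), with the mean and SD over arrays in black and a separate axis range in each panel. The neocortex and clock lists reach higher on old plasma arrays, choroid plexus is spread over both groups, and PBS replicate 4 stands alone in the interferon list at 7.13.

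Glial lists had few called genes, where 6.62% of all genes were higher and 4.15% lower. Oligodendrocyte genes had 1 lower of 20, Cspg4, a proteoglycan of precursor cells and pericytes, with a difference of -0.13 (SE 0.05), though 15 of the 20 were above 0. Astrocyte genes had 0 called of 17, and Gfap, the intermediate filament of reactive astrocytes, ran from 9.71 through 9.85 to 10.03 with old plasma, and from 9.73 through 9.88 to 10.09 with PBS, a difference of -0.04 (SE 0.06). Microglia genes had 1 lower of 17, Ctss, a lysosomal protease, with -0.20 (SE 0.09), and -0.12 without PBS replicate 4. Endothelial and pericyte genes had 1 higher of 16, Pdgfrb, the receptor that marks pericytes, with 0.18 (SE 0.06). Neurogenesis markers had 1 lower of 16, Mcm2, a replication licensing factor, with -0.15 (SE 0.07). Only 2 of the 4 rows of Mcm2 were below 0.

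The other plasma groups share the PBS arrays with this comparison, so their differences from PBS are given side by side only. Adap1 differed from PBS by 0.25 with old plasma, 0.22 with young plasma and 0.14 with cord plasma. Nat8l differed by 0.28 with old, 0.23 with young and 0.18 with cord plasma. Tuba1b differed by 0.38 with old, 0.37 with young and 0.34 with cord plasma, and Olfr596 by -0.57 with old, -0.43 with young and -0.57 with cord plasma. The differences of Tuba1b in the 3 plasma groups lay within 1 SE of each other.

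**Figure D5:**
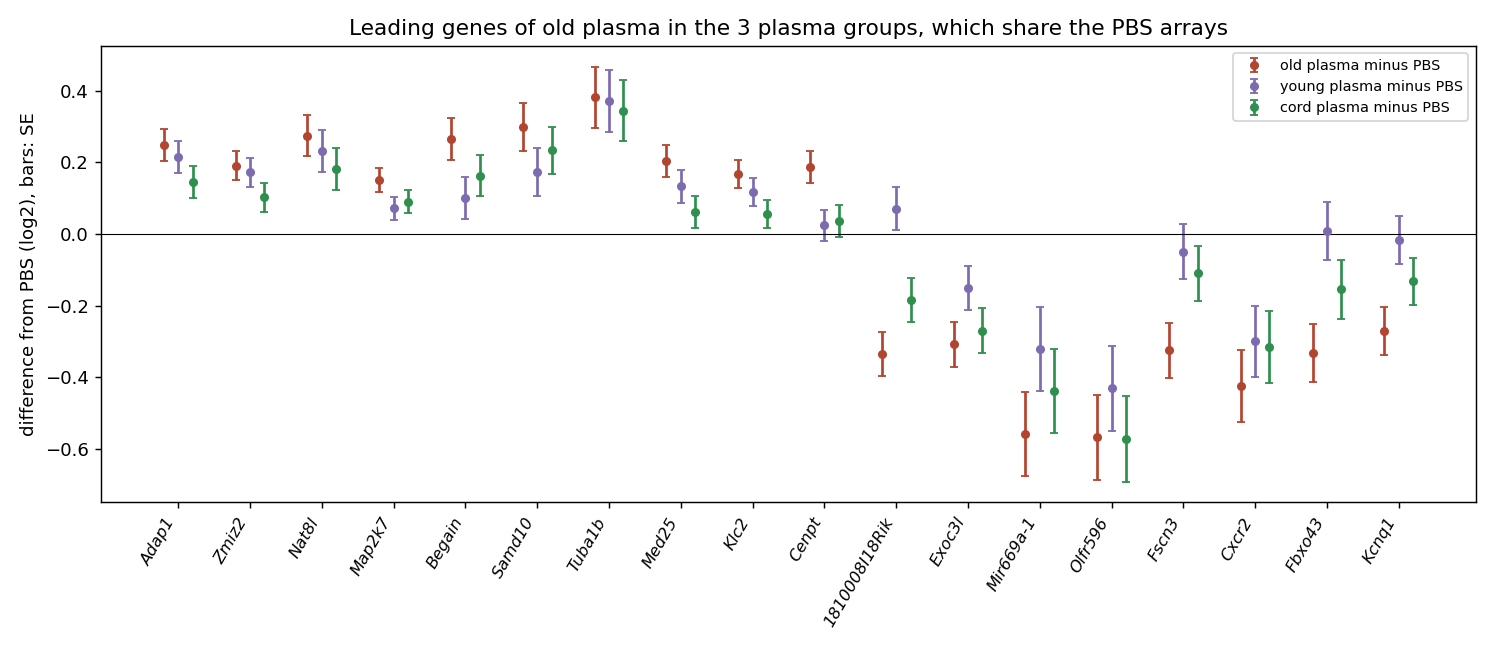
Difference from PBS (log2, bars show the SE) for 18 genes with old, young and cord plasma, each set of points sharing the same 7 PBS arrays. Tuba1b is at 0.38, 0.37 and 0.34, Cenpt is at 0.19, 0.02 and 0.04, and 1810008I18Rik is at -0.33 with old plasma and 0.07 with young plasma. Cenpt was picked after its values were seen.

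Direct differences between plasma groups use no PBS mean, although their spread is estimated over all 28 arrays. Old against cord plasma gave 0 genes at an adjusted p under 0.05 in limma, or 0%, with a smallest adjusted p of 0.999, and 663 at an unadjusted p under 0.05, or 4.2%, with 2.33% higher and 1.88% lower. Old against young plasma gave 1 gene, or 0.00634%, and 1031 at an unadjusted p under 0.05, or 6.53%, with 3.28% higher and 3.26% lower. Centring on the median of tested genes gave 232 higher and 909 lower of old against young plasma, and no filter 550 higher and 959 lower. The gene was 1810008I18Rik, with a difference of -0.41 (SE 0.06) between old and young plasma and an adjusted p of 0.0044. Its old plasma mean lies below the filter, and its difference from cord plasma was -0.15 with an adjusted p of 0.999.

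Cenpt, a centromere protein, falls outside the rule for named genes and was picked after its values were seen. It ran from 6.25 through 6.37 to 6.51 with old plasma, and from 6.11 through 6.24 to 6.29 with PBS, a difference of 0.19 (SE 0.04), against 0.02 with young plasma and 0.04 with cord plasma. Directly, old plasma exceeded young plasma by 0.16 and cord plasma by 0.15. These differences are no test, because the gene was picked with them known. Neither passed adjustment in limma, with an adjusted p of 0.583 against young plasma. Against cord plasma, the smallest adjusted p of any gene was 0.999. Fbxo43 and Kcnq1 were lower with old than with young plasma by a difference of -0.34 and -0.25, both with an adjusted p of 0.583. Per1 differed from young plasma by -0.29 with an adjusted p of 0.671, the old plasma group being the lower.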

How the data were processed

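Biotin-labelled hippocampal RNA was hybridised to whole-transcript Affymetrix arrays, per the labels' protocols. The deposited value table holds log2 intensities. The authors used RMA for them, according to the submitters' processing notes, without a stated version. RMA brings arrays to a common distribution, which reduces any shift that most genes share. A second table by the authors holds group means and unadjusted p-values for rows with a gene symbol, per the file headers. Its old plasma and PBS means matched the value table, and its p-values matched an equal-variance test, within 1e-06. Signal over background is not stated in the files, and the number of arrays limits the precision.

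Of 41345 rows, 23410 carried a symbol. The 17935 rows without a symbol entered no main test. A gene with several rows was represented by the brightest, and rows with a mean under 4.68, the 30th percentile of named rows, were left out. Of 22256 symbols, 26 were restored from dates, 20597 were current in RefSeq (GRCm38.p6) and 958 were synonyms there. No build is named in the files, and coordinates come from the RefSeq promoter table alone.

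Per-gene models were fitted in limma 3.58.1 (R 4.3.3) to all 28 arrays with a mean for each of the 4 groups and eBayes, and Benjamini-Hochberg adjustment ran over 15781 genes. SE is the moderated standard error. The fit was tested on simulated data. Named genes were the 15 per direction with the smallest p, the 10 per direction with the smallest p after centring, the 10 per direction without overlap by the widest gap, the 5 members of each list with the smallest p, and a set chosen by hand; some were left out of the text. The members, the 23 pathway lists and the 14 marker lists were chosen with earlier results of these data known, so lists are described by counts and medians without a test. Alternatives covered centring, loess, quantile normalization, filters, rows, array weights, the 14 arrays alone, a replicate block and leaving out each array.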

Additional observations from a re-analysis of the deposited data

Results flagged for a closer look

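Single arrays that stood apart from the other 6 of their group by Dixon's criterion were looked for in 300 groups of 7 values, and 27 were found, where chance gives about 5% of groups. PBS replicate 4 accounts for 6 of them. It was the highest PBS array for Irf7 at 8.67, B2m at 10.82 and Ctss at 10.03, and for the means of the interferon list at 7.13 and the antigen presentation list at 6.39. It was the lowest for Tle4 at 8.62.

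Old plasma replicate 3 was the highest of its group for Nat8l at 9.81, Scn4b at 7.28 and Pvalb at 7.28, and the lowest for Calb2 at 6.79. Old plasma replicate 2 was the highest for Fcho1 at 8.54 and Rnf208 at 8.23, and the lowest for Prkcd at 6.85. Old plasma replicate 1 was the lowest for 5730403I07Rik at 4.47 and for the sterol list mean at 7.92, and the highest for the glucocorticoid list mean at 8.38. Old plasma replicate 6 was the lowest for Zbtb8a at 5.65 and Col20a1 at 5.25.

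Among PBS arrays, replicate 1 was the lowest for Timp2 at 9.24 and for the interneuron list mean at 7.22. Replicate 2 was the lowest for Samd10 at 5.47 and the highest for Scnn1a at 6.76. Replicate 5 was the lowest for Prr19 at 4.53. Replicate 6 was the highest for H2-Ab1 at 5.49, the presynaptic list mean at 10.02 and the striatum and thalamus list mean at 7.54. Replicate 7 was the highest for Cyp46a1 at 9.35.

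The difference of 1810008I18Rik between old and young plasma was -0.41, with an adjusted p of 0.0044 in limma, and its old plasma mean of 4.58 lay below the filter on dim signal, 4.68.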

How the results depend on the processing

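The count of 0 genes at an adjusted p under 0.05 became 1 after centring on the median of tested genes, 1 with every row, 1 with the filter at the 50th percentile and 1 with a trended and robust fit. It became 3 with array weights, namely Adap1, Exoc3l and Samd10, and 104 after centring on the median of all rows, an alternative chosen after seeing the data, as were loess and loess without PBS replicate 4. Leaving out 1 array gave 0 to 10 genes, with 10 without PBS replicate 5, 4 without PBS replicate 1, 3 without old plasma replicate 5, 2 without old plasma replicate 6 and 1 without PBS replicate 4. The cause was not tested. Genes at an unadjusted p under 0.05 numbered 1425 to 1868 when 1 array was left out, and genes without overlap 65 to 118, a count that grows by construction with fewer arrays. Without PBS replicate 4 and old plasma replicate 3 together, 728 genes were higher and 529 lower. Old against cord plasma gave 1018 genes at an unadjusted p under 0.05 with no filter, where more genes were tested, against 663. The difference of B2m lay between -0.145 and 0.047 when 1 array was left out, the highest without PBS replicate 4, and was 0.043 by loess without that array and 0.038 without it and old plasma replicate 3, against -0.10. The difference of Timp2 was 0.0068 in the last of these settings, against -0.06. No other reversal occurred among 3028 values of 113 named genes under the alternatives that were compared gene by gene, and 53 of these values passed the adjusted threshold. Same-numbered old plasma and PBS arrays had correlations of their deviations from -0.17 to 0.26, and no array correlated best with its own number. The labels state no pairing, and low correlations over all tested genes cannot exclude one. The replicate block gave 0 genes at an adjusted p under 0.05, with 1000 higher and 667 lower at an unadjusted p under 0.05.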
